A study of Mus musculus with 394 samples.

Results

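Nerve terminals that carried the vesicular glutamate transporter fused to VENUS were sorted from mouse cortex and their mRNA was compared with that of all small particles of the same synaptosome preparations. The members were chosen by the sample labels: cortical synaptosomes, genotype VGLUT1_VENUS, either FASS (fluorescence-activated synaptosome sorting on VENUS) or small particle. They comprised 12 libraries of the 394 in the series. There were 3 FASS libraries, from preparations 10, 11 and 12, and 9 small particle libraries, which were 3 technical repeats of each of the same preparations and were summed to 3 samples. All mice were between postnatal days 90 and 150, carried the VGLUT1_VENUS knock-in and shared 1 batch label, and the labels name no treatment. Both were sorted from gradient-purified synaptosomes stained with a membrane dye, and FASS particles were in addition selected for VENUS. The small particles were not selected against VENUS, so they can hold VGlut1-positive terminals as well and are not a negative control. The number of mice in a preparation was not given in the sources used here. In the study these libraries served as a control for RNA of other synaptic material in sorts of dopaminergic terminals.

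A synaptosome is a nerve ending that pinches off and reseals when brain tissue is homogenised, often with a piece of the postsynaptic membrane attached. VGlut1, encoded by *Slc17a7*, loads glutamate into the synaptic vesicles of most cortical excitatory neurons. Most mRNA of such a neuron lies in its soma and dendrites, and fine astrocyte processes that wrap the synapse also hold mRNA and ribosomes. RNA of a sorted terminal can therefore come from the terminal itself or from material that adheres to it, and these sources cannot be told apart from the counts.

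Each molecule was counted once through its unique molecular identifier (UMI). The FASS libraries held 23778, 39742 and 39650 UMIs in preparations 10, 11 and 12, and a single small particle library held between 27930 and 71342. FASS libraries held 0.801 times as many UMIs as the mean small particle library of the same preparation, lower in 3 of 3 pairs (exact paired permutation test, two-sided p = 0.25, the smallest that 3 pairs allow). At an equal depth of 23778 UMIs, the FASS libraries detected 4469, 4594 and 5047 genes and the small particle samples 4749, 5435 and 5759. Summing the repeats gave the small particle samples 88315, 131153 and 172748 UMIs, so genes with few UMIs were measured more deeply on that side. A few loci took much of each library, and the top 10 genes together held between 24.4% and 43.4% of UMIs in the 6 samples. *Dusp10* alone held between 44080 and 136300 CPM (a gene's UMIs scaled to a fixed total per sample). *Unc93b1*, another abundant gene, had 64640, 35330 and 42040 CPM in FASS against 84430, 32910 and 20690, a log2 difference of -0.06 ± 0.45. The technical repeats of preparation 10 differed most, at 9.68 times the chi-square expected from counting alone, against 1.97 and 1.94 in preparations 11 and 12. The p-values of the cortical comparison rest on the spread between 3 preparations, and detection limits cover counting error only.

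The transporter that defined the sort was itself scarce as mRNA. *Slc17a7* had 0, 2 and 1 UMIs in FASS preparations 10, 11 and 12 and 3, 19 and 27 in the small particle samples. In CPM these were 0, 50.3 and 25.2 in FASS against 34.0, 145 and 156. The FASS value lay below the small particle value in every preparation, but the groups overlapped and the log2 difference of -2.22 ± 0.62 (SE) did not pass the test (edgeR quasi-likelihood, adjusted p = 0.12). The count of 0 in preparation 10 allows a level of up to 126 CPM. The sort acted on VGlut1 protein, so this count is no check of the gate. *Th* and *Slc6a3*, markers of dopaminergic neurons, had 1 UMI (small particle preparation 11) and 0 UMIs over the 6 samples.

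The label of the tissue was checked against marker genes. Of 15 markers of cortical glutamatergic neurons, 13 had a UMI in FASS and 15 in small particles. Their summed level was 476, 1037 and 1389 CPM in the cortical small particle samples of preparations 10, 11 and 12, against 384 to 602 CPM in the striatal small particle samples of the same line. Markers of striatal spiny neurons summed to between 834 and 1336 CPM in the cortical small particle samples and between 2169 and 3803 CPM in the striatal ones. In FASS they summed to 2145, 1107 and 1135 CPM in cortex and to between 3332 and 3776 CPM in striatum. The spiny markers thus separated the regions within each fraction. For the cortical markers, small particle preparation 10 lay within the striatal range.

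The test covered 5728 genes that reached 10 UMIs in the 6 samples together, and 46 (0.803%) differed between FASS and small particles at an adjusted p under 0.05. Only 6 were higher in FASS (0.105%) and 40 were lower (0.698%). The fit used DESeq2 size factors and a term for the preparation, without which 136 genes were called, 38 higher and 98 lower. Scaling by total UMIs instead called 135 genes, 85 higher and 50 lower, and moved the median log2 difference of all genes from -0.64 to -0.41. Directions of gene groups are therefore given beside the median of all genes. The median was -0.07 among the 509 genes of at least 100 UMIs, where 30.1% were higher in FASS in all 3 preparations and 37.7% were lower in all 3. Leaving out any 1 preparation left 0 called genes, with 441 to 717 genes at an unadjusted p under 0.05.

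Most of the genes with the smallest p-values were lower in FASS, with *Arhgef38*, described below, as an exception. The lower genes included a locus of ribosomal RNA and loci that overlap or share sequence with one another. *Rn18s-rs5*, annotated as rRNA, had 1304, 856 and 1765 CPM in FASS preparations 10, 11 and 12 against 16230, 23000 and 23230 CPM in small particles. The groups did not overlap, and the log2 difference was -4.31 ± 0.36 (SE, adjusted p = 0.0056). It lies on the minus strand of chromosome 17 (39846353 to 39848827, GRCm38) and its record spans all of *Gm42418* on the plus strand (39846958 to 39848788), with *Gm26917* next to them (39843013 to 39846341). *Gm42418* had 5425, 3623 and 5170 CPM in FASS against 32130, 38280 and 31850, a log2 difference of -3.17 ± 0.35 (adjusted p = 0.0085). *Gm26917* had 1 UMI over the 3 FASS libraries and 175 over the small particle samples (log2 difference -5.50 ± 0.69). Whether counting used strand was not given in the sources used here, so UMIs of the overlapping records cannot be told apart.

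*Lars2*, which encodes the mitochondrial leucyl-tRNA synthetase, fell with them. It had 799, 604 and 908 CPM in FASS against 4348, 11890 and 11330 CPM, a log2 difference of -3.81 ± 0.35 (adjusted p = 0.0056). Its transcript shares a run of 36 bases with the annotated transcripts of *AA474408* and *Gm15564*, on 3 different chromosomes, and all 3 loci were called lower. The first 30 bases of the run, all in capitals because all are shared, are shown because a read from any of the 3 would match the others here.
Lars2, AA474408 and Gm15564, sense strand: GAATTCACCAAGCGTTGGATTGTTCACCCA
In *Lars2* the run lies at chr9:123462048-123462077 on the plus strand, and in *AA474408* at chr7:110059709-110059738 on the minus strand. In *Gm15564*, on the minus strand of chromosome 16, it crosses an exon junction and its ends lie at 35981767 and 35983052. Searched on both strands, these 30 bases were present in 3 of 55450 genes of the GENCODE vM21 transcripts (0.00541%), which were these 3. The shared run was noticed after the values were seen and is a description. It was not compared with ribosomal RNA here. *AA474408* had 3 UMIs in FASS and 274 in small particles (log2 difference -4.64 ± 0.70), and *Gm15564* had 336, 277 and 404 CPM against 1766, 1830 and 1858 (-2.70 ± 0.29).
The 7 loci *Gm42418*, *Gm26917*, *AY036118*, *Rn18s-rs5*, *Mir6236*, *Gm15564* and *Lars2* together held between 0.566% and 0.855% of UMIs in FASS and between 5.62% and 7.79% in small particles. *Mir6236* fell by 3.19 on the log2 scale. The libraries capture polyadenylated ends, so its UMIs do not measure a mature microRNA. *Ddhd1*, a phospholipase, had 3, 5 and 3 UMIs in FASS against 53, 156 and 180, a log2 difference of -3.42 ± 0.36 (adjusted p = 0.0083). *Gm15662* (-3.94 ± 0.48) and *Gm43333* (-2.31 ± 0.28) completed the 10 lower genes that the naming rule took.

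**Figure D1:**
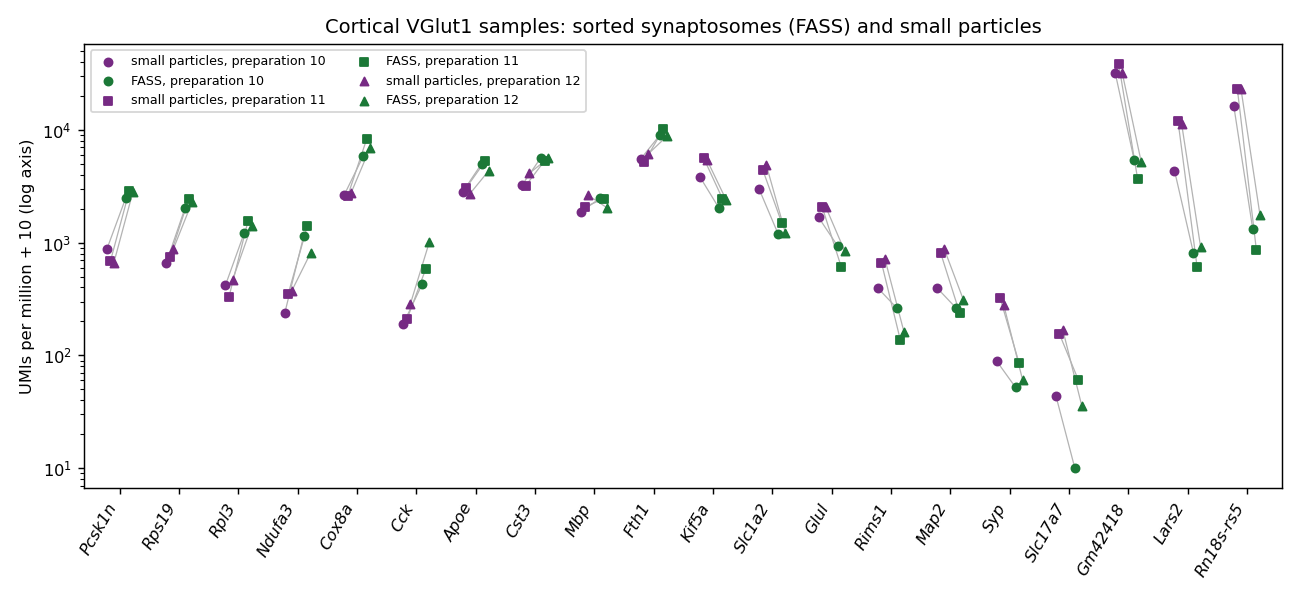
CPM plus 10 (log axis) of 20 genes in the 3 FASS samples (green) and the 3 small particle samples (purple) of cortex, with lines joining the samples of a preparation. *Gm42418*, *Lars2* and *Rn18s-rs5* lie lower in FASS in every preparation, *Pcsk1n*, *Rps19* and *Ndufa3* lie higher in every preparation, and *Slc17a7* has 0, 2 and 1 UMIs in FASS.

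Of the 6 genes called higher in FASS, 3 were processed pseudogenes and 1 rested on a single library. *Pcsk1n* encodes proSAAS, a secreted inhibitor of a prohormone convertase. It had 2481, 2869 and 2799 CPM in FASS against 861, 671 and 654 CPM, so the groups did not overlap (log2 difference 1.63 ± 0.28, adjusted p = 0.047). *Gm11478* (1.38 ± 0.23), *Gm6977* (1.74 ± 0.29) and *Rpl13a-ps1* (1.77 ± 0.30) are annotated as processed pseudogenes. Such copies can take reads from the genes they derive from, and their values are uncertain. *Gm11808* is annotated as a coding gene of 504 bases (1.48 ± 0.25). *Arhgef38* (6.47 ± 0.58) had 128 of its 132 UMIs in FASS preparation 11, with 1 and 0 in the other FASS libraries, and is no difference between the groups. On the lower side, by a search made after the values were seen, *Hmcn2*, *Nxpe3*, *Gm5575* and *4930421C12Rik* each had between 86.7% and 100% of their small particle UMIs in 1 technical repeat of preparation 10. Without that repeat 24 genes were called, 1 higher and 23 lower.

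mRNAs of cytosolic ribosomal proteins leaned toward FASS. Their summed level was 107747, 130869 and 115435 CPM in FASS preparations 10, 11 and 12 against 54181, 55958 and 70415 CPM in small particles, which is 1.99, 2.34 and 1.64 times as much. None of the 79 genes passed the test over all genes. Even so, 56 of 79 were higher in FASS in all 3 preparations and 1 was lower in all 3, beside 9.1% and 36.7% of all genes tested. At least 100 UMIs were reached by 73 of the 79, and at that depth 30.1% of all genes were higher and 37.7% lower. The median log2 difference was 0.68, against -0.64 over all genes and -0.07 among genes of at least 100 UMIs. With a minimum of 30 UMIs per gene, 29 of 78 were called higher and 0 lower, where 5.68% of all genes were called higher and 9.24% lower. The 46 proteins of the large subunit and the 31 of the small subunit had medians of 0.70 and 0.63.

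*Rps19*, a protein of the small subunit, had 2019, 2416 and 2295 CPM in FASS against 645, 732 and 863 CPM (log2 difference 1.30 ± 0.24, adjusted p = 0.055). *Rpl3*, at the catalytic core of the large subunit, had 1220, 1535 and 1387 CPM against 408, 320 and 457 (1.54 ± 0.28, adjusted p = 0.055). Neither group overlapped the other for these genes, although neither passed the threshold. *Rpl17* (1.44 ± 0.27) and *Rps15* (1.33 ± 0.25) had similar values, while *Rps29* differed less (0.50 ± 0.26, adjusted p = 0.32). Translation factors were spread more widely. On the scale of total UMIs, their summed level was 1.33, 1.44 and 1.08 times the small particle level. Of 18 tested, 6 were higher and 6 lower in all 3 preparations, beside 9.1% and 36.7% of all genes. The median of the 18 was 0.03 and lay 0.67 above that of all genes. The 9 of at least 100 UMIs had a median of -0.04, near the -0.07 of all genes at that depth. *Naca*, a ribosome-associated chaperone subunit, was the nearest to the threshold (1.20 ± 0.31, adjusted p = 0.11).

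Nuclear-encoded subunits of the respiratory chain also leaned toward FASS. Their summed level was 39238, 51331 and 44969 CPM in FASS against 20755, 20732 and 23607 CPM. Of 74 tested, 32 were higher in FASS in all 3 preparations and 2 were lower in all 3, beside 9.1% and 36.7% of all genes tested. At least 100 UMIs were reached by 36 of the 74, and at that depth 30.1% of all genes were higher and 37.7% lower. None of the 74 was called, and the median log2 difference was 0.62, beside -0.64 over all genes. Among the 36 it was 0.78, beside -0.07 over all genes at that depth. With a minimum of 30 UMIs, 19 of 71 were called higher and 0 lower, where 5.68% of all genes were called higher and 9.24% lower. Complex IV, cytochrome c oxidase, had the highest median of the complexes, 0.96 over 10 subunits, with 8 of 10 higher in every preparation. Complex I, the NADH dehydrogenase, had 15 of 36 higher and a median of 0.65. Complex V, the ATP synthase, had 6 of 14 higher and a median of 0.27. Complex II, which is small and encoded wholly in the nucleus, had 0 of 4 higher and a median of 0.13. Differences between complexes were not tested. *Ndufa3*, an accessory subunit of complex I, had 1136, 1384 and 807 CPM against 227, 343 and 365 CPM (1.51 ± 0.28, adjusted p = 0.055). *Cox8a* had 5804, 8228 and 6936 CPM against 2616, 2570 and 2761 CPM (1.09 ± 0.28, adjusted p = 0.11).

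**Figure D2:**
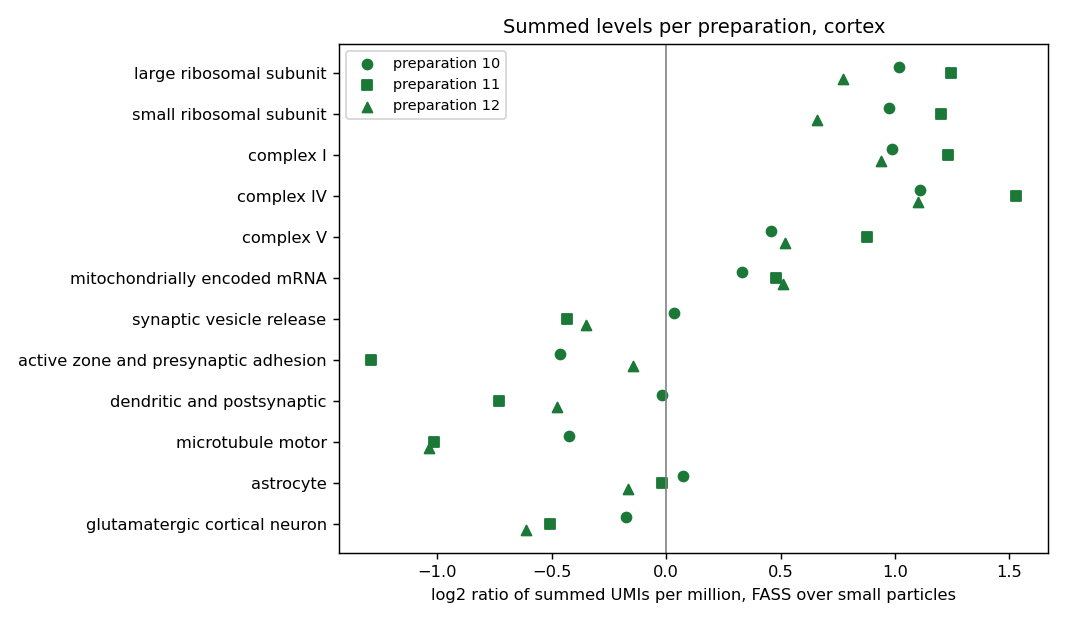
Log2 ratio of the summed CPM, FASS over small particles, for groups of genes in cortical preparations 10 (circles), 11 (squares) and 12 (triangles). Both ribosomal subunits and complexes I, IV and V lie above 0 in every preparation, while microtubule motors and active zone genes lie below 0 in every preparation. These ratios are on the scale of total UMIs. The size factors of the fit place FASS lower, so groups near 0 can change side.

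RNAs made inside the mitochondrion were spread on both sides of no difference. Of 13 tested, the ribosomal RNAs included, 0 were higher and 4 lower in all 3 preparations, beside 9.1% and 36.7% of all genes tested. None of the 13 was called. All mitochondrially encoded genes, with the 22 tRNA genes included, were also summed. They took 17.6% ± 0.95 of UMIs in FASS and 15.5% ± 2.8 in small particles (SD, n = 3). The FASS share was higher in 3 of 3 pairs (exact paired permutation p = 0.25). Without the 2 ribosomal RNAs, but with the tRNAs, the FASS share lay between 7.3% and 9.5% and the small particle share at 5.0% in each sample. The 15 listed mRNAs and rRNAs without the tRNAs had ratios of 0.934, 0.95 and 1.267 in preparations 10, 11 and 12. FASS was thus lower in 2 of 3 pairs for that list. *mt-Rnr1*, the 12S rRNA, had 40960, 32310 and 42090 CPM in FASS against 63520, 50230 and 40710 CPM (log2 difference -0.71 ± 0.39, adjusted p = 0.33). *mt-Rnr2*, the 16S rRNA, had a log2 difference of -0.14 ± 0.39. The summed level of the 13 mitochondrial mRNAs was 1.26, 1.39 and 1.42 times as high in FASS, on the scale of total UMIs. On the scale of size factors, which differs, the median log2 difference of the 11 that were tested was -0.07. *mt-Nd1* had 12320, 11270 and 12080 CPM against 8266, 6534 and 6536, and its log2 difference was 0.45 ± 0.29 (adjusted p = 0.40). *mt-Nd6*, another subunit of complex I, had 294, 327 and 378 CPM against 476, 602 and 637 (-1.05 ± 0.28, adjusted p = 0.12), and *mt-Atp8*, of the ATP synthase, had 1178, 1434 and 1866 CPM against 2083, 2135 and 2507 (-0.87 ± 0.27, adjusted p = 0.15). The 22 mitochondrial tRNA genes, chosen after their values were seen, summed to 2.18, 2.89 and 1.51 times the small particle level, and 14 were higher in every preparation.

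Most lists of synaptic and neuronal genes lay close to the whole set of genes tested, of which 9.1% were higher and 36.7% lower in FASS in all 3 preparations, with a median of -0.64. The active zone list lay furthest below that median among the synaptic lists. Among genes of at least 100 UMIs, where the median of all genes was -0.07, these synaptic lists lay lower. Their medians there were -1.63 for the active zone (4 genes), -1.40 for motors (7) and -0.87 for dendritic and postsynaptic genes (10). They were -0.76 for ion pumps and channels (5), -0.69 for vesicle release (7) and -0.53 for calcium signaling (11). The neuronal marker lists had at most 2 genes at that depth. Among 17 genes of the active zone and presynaptic adhesion, 9 were lower in FASS in all 3 preparations and 0 higher, and 1 was called. The median was -1.04, though without a filter on low counts it lay 0.22 above that of all genes. The called gene was *Rims1*, which encodes a scaffold that docks vesicles at calcium channels. It had 252, 126 and 151 CPM in FASS against 385, 656 and 700 CPM (log2 difference -2.08 ± 0.36, adjusted p = 0.047). *Bsn* (bassoon, another scaffold) had 0, 3 and 2 UMIs against 5, 35 and 67 (-2.59 ± 0.52, adjusted p = 0.0595). *Rims2* had 0, 2 and 2 UMIs against 5, 23 and 23 (-1.93 ± 0.60, adjusted p = 0.15). *Erc1* stood apart with 51 UMIs in FASS preparation 12 and 1 in the other FASS libraries together, which raised the list's sum in that library.

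Among the 25 genes of synaptic vesicle release, 14 were lower in all 3 preparations, 1 was higher and 0 were called, and the median of -0.56 lay 0.08 above that of all genes. *Syp*, an abundant vesicle membrane protein, had 42.1, 75.5 and 50.4 CPM in FASS against 79.3, 313 and 272 CPM (log2 difference -2.22 ± 0.43, adjusted p = 0.0505). *Cplx2*, a regulator of vesicle fusion, had a difference of -0.79 ± 0.31. *Rab3a*, a vesicle GTPase, had 5, 6 and 5 UMIs in FASS and 2, 6 and 12 in the deeper small particle samples (1.39 ± 0.50, adjusted p = 0.21).

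Motor proteins that carry cargo along axonal microtubules were lower in sum. Their summed level was 4542, 4982 and 5069 CPM in FASS against 6103, 10065 and 10408 CPM. Of 16 tested, 8 were lower in all 3 preparations, 1 was higher and 1 was called. *Kif5a*, the heavy chain of a neuronal kinesin, had 2019, 2441 and 2396 CPM against 3816, 5658 and 5384 CPM (log2 difference -1.40 ± 0.25, adjusted p = 0.048). *Kif1b* (-1.56 ± 0.29), *Kif5c* (-1.53 ± 0.39) and *Kif1a* (-1.03 ± 0.27) had differences in the same direction that did not pass the test. The median of the list was -0.77, which is 0.14 below that of all genes, and without a filter on low counts it lay 0.51 above that of all genes.

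Dendritic and postsynaptic mRNAs were lower in FASS in all 3 preparations for 11 of 24 genes, higher for 0, and called for 0, beside 36.7% lower among all genes. Their median of -0.77 lay 0.13 below that of all genes. *Map2*, a microtubule protein of dendrites, had 252, 227 and 303 CPM against 385, 793 and 863 (log2 difference -1.66 ± 0.30, adjusted p = 0.055). *Camk2a*, a dendritically localised kinase mRNA, had 336, 705 and 681 CPM against 487, 1456 and 1372 (-1.17 ± 0.26, adjusted p = 0.075). *Shank2*, a postsynaptic scaffold, had 0, 0 and 1 UMIs in FASS against 1, 20 and 20, and *Itpr1*, a calcium release channel, had a difference of -1.40 ± 0.44 (adjusted p = 0.17). At the other end, and picked after its value was seen, *Nrgn* (neurogranin) had a difference of 0.73 ± 0.32 (adjusted p = 0.26). Of 30 cytoskeletal genes, 11 were lower and 4 higher in all 3 preparations, with a median of -0.24, which is 0.39 above that of all genes. The direction depended on depth. The 14 cytoskeletal genes of at least 100 UMIs had a median of -0.82, below the -0.07 of all genes at that depth. *Dst* (dystonin) differed by -2.14 ± 0.44 (adjusted p = 0.067) and *Tmsb10*, a short actin-binding peptide, by 1.59 ± 0.37 (adjusted p = 0.088). Of 20 calcium signaling genes, 10 were lower and 1 higher, with a median of -0.59. Of 16 ion pump and channel genes, 7 were lower and 0 higher, with a median of -0.75. Both medians were near the -0.64 of all genes. *Scn1a*, a sodium channel, had 0, 1 and 1 UMIs in FASS against 0, 25 and 21. *Slc12a5*, the neuronal chloride exporter, had 0, 3 and 3 against 9, 32 and 38 (log2 difference -1.99 ± 0.56, adjusted p = 0.11).

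**Figure D3:**
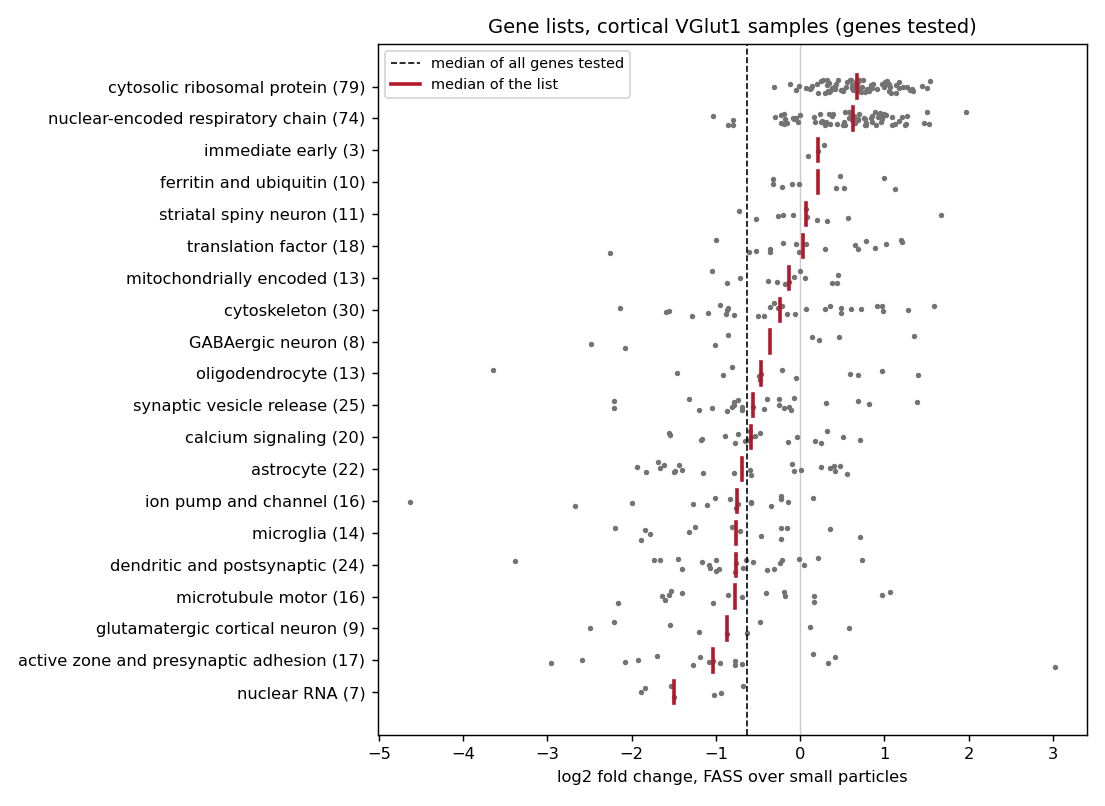
Log2 difference of every tested gene (points) in each gene list, with the list's median (red) and the median of all 5728 genes tested (dashed, -0.64), cortical FASS over small particles. Lists with at least 3 genes tested are ordered by their median, with ribosomal proteins (0.68) and the respiratory chain (0.62) at the top and nuclear RNAs (-1.49) at the bottom, and the number tested stands in brackets.

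Glial RNA was present in both groups at much the same share. Markers of astrocytes, oligodendrocytes, their precursors and microglia summed to 2.69% ± 0.14 of UMIs in FASS and 2.79% ± 0.39 in small particles (SD, n = 3, exact paired permutation p = 0.75). All 22 astrocyte markers had a UMI in FASS. They did not move together: 11 were lower in all 3 preparations and 2 were higher, beside 36.7% and 9.1% of all genes tested. Of the 22 markers 2 were called lower, beside 0.698% of all genes. The astrocyte median of -0.69 lay slightly below that of all genes, and 0.59 above it without a filter on low counts. *Slc1a2*, the main astrocytic glutamate transporter, had 1178, 1485 and 1211 CPM in FASS against 2955, 4399 and 4845 CPM (log2 difference -1.93 ± 0.26, adjusted p = 0.021). *Glul*, which turns glutamate into glutamine, had 925, 604 and 832 CPM against 1664, 2066 and 2067 (-1.61 ± 0.26, adjusted p = 0.037). *Slc1a3*, the other astrocytic glutamate transporter, had 5, 8 and 11 UMIs against 26, 91 and 106 (-1.48 ± 0.32, adjusted p = 0.074). *Glud1*, another enzyme of glutamate metabolism (-1.44 ± 0.39), *Fads1*, a fatty acid desaturase (-1.32 ± 0.36) and *Clu* (-0.79 ± 0.27) did not pass the test either. *Apoe*, the lipid carrier, had 5005, 5284 and 4338 CPM against 2808, 3057 and 2698 CPM, with no overlap, yet its log2 difference of 0.47 ± 0.24 did not pass (adjusted p = 0.32). *Aldoc*, a glycolytic enzyme, had 2986, 3950 and 3203 CPM against 2027, 2394 and 2512 CPM, and a difference of 0.25 ± 0.25. *Gfap* had 1 UMI in each FASS library and 7, 13 and 11 in small particles.

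*Cst3*, a protease inhibitor made by microglia and astrocytes, had 5678, 5309 and 5574 CPM in FASS against 3227, 3179 and 4104 (log2 difference 0.36 ± 0.24, adjusted p = 0.43). *Mbp*, whose mRNA travels to myelin, differed by -0.21 ± 0.24. Of 13 oligodendrocyte markers, 4 were higher and 6 lower in every preparation, beside 9.1% and 36.7% of all genes tested, and 0 were called. *Tspan2* had 0, 1 and 0 UMIs in FASS against 5, 18 and 25 (-3.64 ± 0.91, adjusted p = 0.093), while *Qdpr* differed by 0.69 ± 0.29 and *Cryab*, a small heat shock protein, by 0.97 ± 0.39. The precursor markers *Olig1* and *Gpr17* had at most 6 UMIs in a FASS library. Of 14 microglial markers tested, 6 were lower in every preparation, beside 36.7% of all genes tested, and 0 were called, with a median of -0.76. All 15 listed had a UMI in FASS, and they summed to 841, 830 and 1286 CPM there against 1110, 907 and 2049 in small particles. *Cx3cr1* and *P2ry12* had between 0 and 1 UMI in each FASS library. In the deeper small particle samples *Cx3cr1* had 6, 4 and 16 UMIs and *P2ry12* had 5, 4 and 17. Endothelial and red cell markers summed to between 0 and 168 CPM in any of the 6 samples. *Fth1*, the ferritin heavy chain, had 8916, 10090 and 8752 CPM against 5514, 5177 and 6055 (0.43 ± 0.27, adjusted p = 0.40). Of 10 ferritin, ubiquitin and related genes, 3 were higher and 0 lower in every preparation, with *Sepw1*, a small selenoprotein, at 1472, 2441 and 1841 CPM against 623, 724 and 799 (1.13 ± 0.27, adjusted p = 0.088). *Cpe*, a carboxypeptidase that matures neuropeptides, had 1136, 1308 and 1564 CPM against 1800, 2791 and 2865 (-1.17 ± 0.24, adjusted p = 0.068). The part of glial material in any of these differences was not tested.

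Neuronal markers gave values near the depth limit. Of 9 cortical glutamatergic markers tested, 5 were lower in every preparation and 0 higher, beside 36.7% and 9.1% of all genes tested. The summed level of these markers in FASS was 421, 730 and 908 CPM against 476, 1037 and 1389. GABAergic markers summed to 967, 830 and 1589 CPM in FASS against 623, 671 and 973, while the median over the 8 tested was -0.36. The member nearest to the threshold was *Cck* (cholecystokinin), a peptide of interneurons that pyramidal cells also express, with 421, 579 and 1009 CPM against 181, 198 and 278 (log2 difference 1.36 ± 0.31, adjusted p = 0.080). The GABAergic sum in FASS thus rested largely on *Cck* in preparations 11 and 12. *Gad2*, which makes GABA, had 1, 0 and 0 UMIs in FASS. Among the cortical markers, *Mef2c*, a transcription factor, had 0, 4 and 7 UMIs against 10, 35 and 62 (-1.54 ± 0.50, adjusted p = 0.17). Spiny neuron markers had a median of 0.07 over 11 tested, and the dopaminergic marker tested, *Aldh1a1*, differed by 0.54 ± 0.47. Nuclear RNAs, which mark nuclear material, were lower in every preparation for 5 of 7 tested, beside 36.7% of all genes tested. *Malat1* had 799, 327 and 479 CPM in FASS against 1019, 633 and 428 (-0.68 ± 0.31, adjusted p = 0.27), so the groups overlapped. *Neat1* had 2, 1 and 1 UMIs against 17, 19 and 8 (-1.90 ± 0.54, adjusted p = 0.12). Technical repeat 1 held 15, 17 and 5 of those small particle UMIs in preparations 10, 11 and 12. The *Neat1* difference thus rested mostly on 1 repeat of each preparation. The immediate early genes *Arc*, *Egr1* and *Jun* had at most 6 UMIs in any FASS library.

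Short mRNAs leaned toward FASS and long ones toward small particles. Spearman's rho between transcript length and the log2 difference was -0.50 over all 5404 coding genes tested and -0.39 for the length of the 3′ untranslated region. The 440 coding genes of at least 100 UMIs were split into quartiles by their longest annotated coding transcript. The shortest quartile (median 725 bases) had a median log2 difference of 0.69, with 75 of 110 genes higher in FASS in all 3 preparations and 1 lower. The next quartile (median 1707 bases) had a median of 0.34, and the third (3630 bases) a median of -0.66. The longest quartile (8184 bases) had a median of -1.37, with 2 of 110 higher and 84 lower in all 3. Among these genes rho was -0.72, and they share their libraries and are not replicates. Without the ribosomal protein and respiratory chain genes it was -0.63 over 331 genes, and for the annotated 3′ untranslated region it was -0.63 over all 440.

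Some gene lists differed in the same way. Ribosomal protein mRNAs had a median length of 914 bases and respiratory chain mRNAs 913, against 6163 for motors and 8366 for active zone genes. Not every list followed length. Microglial markers had a median length of 1279 bases and a median log2 difference of -0.76, and spiny neuron markers had 3433 bases and 0.07. The ribosomal, respiratory, motor, active zone, dendritic and channel lists were set beside other genes of their own quartile. In the shortest quartile, the 79 ribosomal and respiratory genes had a median of 0.70, with 56 higher in every preparation. The 31 genes on neither list had a median of 0.57, with 19 higher in every preparation. Short genes outside the lists, picked after their values were seen, were *Oaz1*, the ornithine decarboxylase antizyme (1.46 ± 0.30), *Gng13*, a G protein subunit (1.30 ± 0.30) and *Fis1*, an adaptor of mitochondrial fission (1.20 ± 0.31), and none of these passed the test. In the longest quartile, 20 genes of the motor, active zone, dendritic and channel lists had a median of -1.07, and the other 90 genes had a median of -1.39. Length and function were not separated by this design, and the part of each in the difference was not tested.

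**Figure D4:**
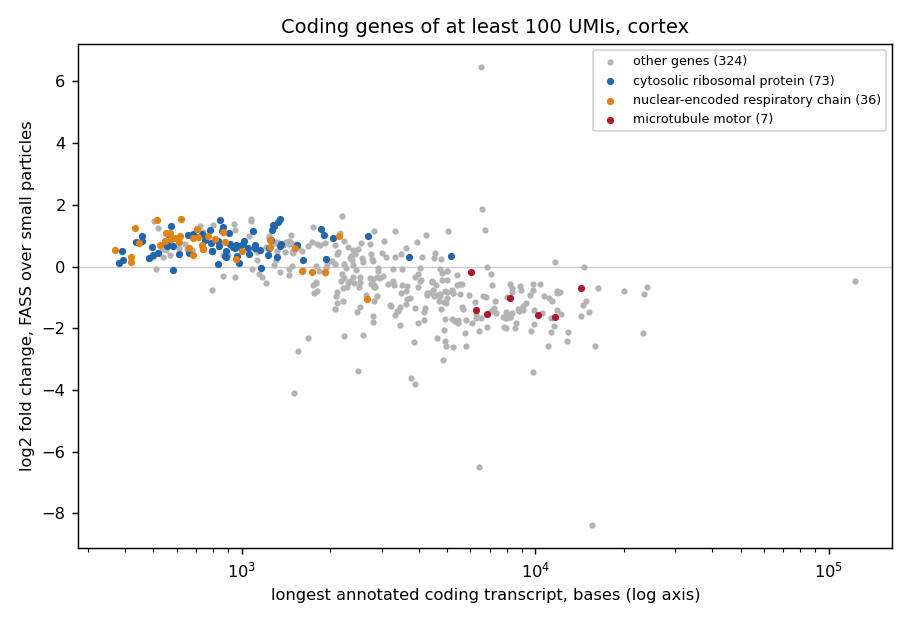
Log2 difference, FASS over small particles, against the length of the longest annotated coding transcript (log axis) for the 440 coding genes of at least 100 UMIs in cortex. Ribosomal protein (blue) and respiratory chain (orange) genes lie among the short, higher genes and motors (red) among the long, lower ones, and the other genes are grey.

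The same contrast was available in the striatum of the VGlut1 line, from preparations 7, 8 and 9 with their own small particle samples, so no sample was shared. Across the 505 genes of at least 100 cortical UMIs that were tested in both, the log2 differences had a Pearson correlation of 0.81, and 0.77 over the 390 left after taking out ribosomal, respiratory and the 7 depleted loci. These are descriptions across genes. In striatum 13 of 3977 genes (0.327%) were called, 0 higher and 13 lower, and 10 of these were among the 46 called in cortex (21.7% of the cortical and 76.9% of the striatal calls). The ribosomal protein list summed to 1.99, 2.34 and 1.64 times the small particle level in cortical preparations 10, 11 and 12 and 2.03, 1.51 and 1.84 times in striatal preparations 7, 8 and 9. For motors the ratios were 0.74, 0.50 and 0.49 in cortex and 0.38, 0.74 and 0.68 in striatum.

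The difference between the regions was tested directly with a region by fraction term. Of 7641 genes, 0 were called (edgeR quasi-likelihood), 186 had an unadjusted p under 0.05, and DESeq2 also called 0. A p above the threshold does not show that cortical and striatal terminals were alike at this depth. The smallest p belonged to *Angptl2* (log2 cortical minus striatal difference 3.31 ± 0.68, adjusted p = 0.24), which had 0, 629 and 1135 CPM in cortical FASS against 181, 374 and 145 CPM in cortical small particles. In striatum it had 253, 236 and 281 CPM in FASS against 1327, 1100 and 471 CPM in small particles. *Ick* (2.92 ± 0.71) rested on 1 FASS library of preparation 12, and *Agxt* (5.28 ± 1.29) on 1 striatal small particle sample. *Glul* had a log2 difference of -1.61 in cortex and -0.53 in striatum, a contrast of -1.21 ± 0.37 that did not pass (adjusted p = 1). In the DAT:EGFP line, where dopaminergic terminals of striatum were sorted, 608 of 8906 genes (6.83%) were called with 6 preparations, and 39 of the 46 cortical calls were among them (84.8% of the cortical and 6.41% of the striatal calls).

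**Figure D5:**
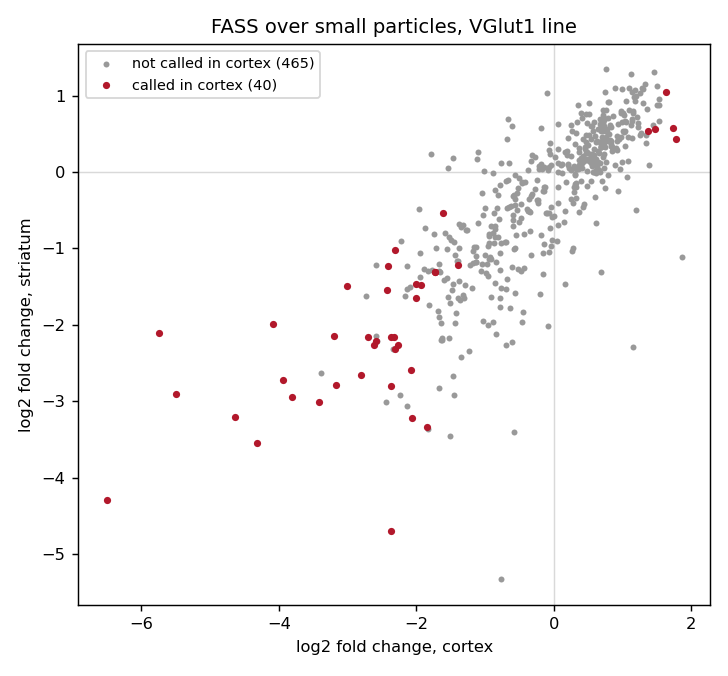
Log2 difference, FASS over small particles, in cortex (horizontal) and striatum (vertical) of the VGlut1 line, for the 505 genes of at least 100 cortical UMIs tested in both, with genes called in cortex in red. The Pearson correlation is 0.81, and the called genes shown lie at the lower left or, for 5 of 40, at the upper right.

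Some RNAs were found in small particles and not in FASS. By the rule of most small particle UMIs with 0 in the 3 FASS libraries, these were *Hmcn2*, *Zbed4-ps3*, *Man1a2*, *Nwd1* and *Ssfa2*. *Hmcn2* (144 UMIs) and *Zbed4-ps3* (52 UMIs) were seen only in preparation 10, with 144 and 51 of these UMIs in technical repeat 1. *Man1a2*, a mannosidase of the Golgi, had 3, 22 and 20 UMIs in small particles. Against a limit of 3 UMIs over the 3 FASS libraries it was at least 3.95-fold lower in FASS. *Nwd1* had 16, 17 and 9 UMIs and was at least 3.68-fold lower, and *Ssfa2* had 6, 14 and 21 UMIs and was at least 3.59-fold lower. None of *Man1a2*, *Nwd1* and *Ssfa2* passed the test over all genes. They were picked for their 0 UMIs in FASS, so these bounds rest on the counts used to select them. The bounds are therefore no independent measure of a difference. In striatum of the VGlut1 line, the log2 differences of *Man1a2*, *Nwd1* and *Ssfa2* were -1.001, -4.446 and -1.287. In the DAT:EGFP line they were -0.859, -2.591 and -2.767.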

How the data were processed

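The deposited table held UMI counts per gene. Per the study's methods, the authors mapped reads from 3′ ends with STAR (GRCm38, GENCODE vM10) and merged UMIs that differed at 1 base at most. No column of per-sample values was left unmapped. Technical repeats of a small particle preparation were summed. FASS and small particle samples were compared in 6 samples with edgeR 4.0.16 (quasi-likelihood, DESeq2 1.42.0 size factors, preparation as block, at least 10 UMIs per gene, Benjamini-Hochberg over all genes, threshold 0.05) in R 4.3.3. Preparation numbers came from the study's sample sheet, and deviations from the group means correlated at 0.295, -0.0736 and 0.294 between the samples of preparations 10, 11 and 12 (509 genes). The code was tested on simulated data. CPM are a gene's UMIs scaled by all UMIs of the sample. Higher or lower in every preparation was judged on counts scaled by size factors with 0.5 added.

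Named genes were up to 10 called in each direction (lowest p, mean CPM at least the median of tested genes), up to 4 of each list (lowest p), genes the study discusses, the 10 most abundant in FASS, 5 genes with 0 UMIs in FASS, and the 3 with the lowest interaction p in each direction. Genes outside this rule are said to be picked after their values were seen, or belong to a named sum. Members, 24 gene lists and tests were chosen with earlier results of these data known. Lists are described by counts and medians and had no test. Depth was 23778 to 39742 UMIs in FASS and 88315 to 172748 in summed small particle samples. Sample values were compared by exact permutation tests (3 against 3 cannot go below 0.1, 3 pairs not below 0.25). Lengths and positions are those of GENCODE vM21 on GRCm38. All sorted libraries carry the same batch label, so no within-batch value could be made. The full-length RNA-seq table was not used here, and a few genes that the rule took are not reported here.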

Additional observations from a re-analysis of the deposited data

How the results depend on the processing

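The count of genes that differed (46, with 6 higher) moved with the processing. It was 9 (1 higher) with TMMwsp, 135 (85 higher) with total UMIs, 323 (123 higher) with a minimum of 30 UMIs, 219 (71 higher) without a filter, 110 and 102 (48 and 43 higher) with the DESeq2 Wald and likelihood ratio tests, 309 (94 higher) with the legacy quasi-likelihood, 136 (38 higher) with no replicate block and 486 (55 higher) with all 24 sorted samples. TMM gave 49, the first repeat 33 and leaving out mitochondrial genes 43. Chosen after seeing the data, a minimum of 100 UMIs gave 258 of 509, leaving out repeat 1 of preparation 10 gave 24 and leaving out 12 abundant loci gave 22. Each fit without 1 preparation gave 0.

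Calls among genes of the lists were 4 (0 higher), and mostly higher in several alternatives. They were 0 with TMMwsp, 52 (44 higher) with total UMIs, 75 (55 higher) with at least 30 UMIs, 47 (29 higher) without a filter, 44 and 42 (30 and 28 higher) with the DESeq2 tests, 59 (36 higher) with the legacy fit, 26 (16 higher) with no replicate block, 75 (21 higher) with all 24 samples and 0 without any 1 preparation. The interaction count was 1 with TMMwsp, 4 without a filter and 5 with DAT:EGFP striatal samples, and 0 without each preparation.

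The UMI ratio was 0.266 against summed repeats, and 0.751 to 0.858 without 1 preparation. The difference in mitochondrial share was 1.24 to 3.08 points without 1 preparation. The glial difference of -0.0999 points was 0.0236 with the first repeat and -0.228 to 0.05997 without 1 preparation. *Hmcn2* had a log2 difference of 0.0482 in both DESeq2 tests. Relative to all genes, the medians turned sign without a filter for motors (0.51), the active zone (0.22) and astrocytes (0.59), and for astrocytes with both DESeq2 tests (0.0273). The causes were not tested.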
